A study of Drosophila melanogaster with 12 samples.

Results

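The genes described here are the cytochrome P450 genes of Drosophila melanogaster outside the Cyp4 family, in RNA pulled down with ribosomes of adult oenocytes. Members were chosen by name alone: a locus belonged where the RefSeq symbol of its transcripts began with Cyp, a family number, a subfamily letter and a gene number, and was not a Cyp4 symbol. This gave 60 of the 16191 loci in the table, 13299 of them protein-coding. By family number, 23 were Cyp6, 5 Cyp9, 7 Cyp12 and 4 Cyp28 genes, 19 carried a family number of 3 digits that begins with 3 (called Cyp3xx here), and Cyp18a1 and Cyp49a1 stood alone. The 7 Cyp12 genes, Cyp49a1 and Cyp301a1, 9 in all, encode mitochondrial enzymes by family, and the other 51 microsomal ones. The P450 genes of ecdysteroid synthesis that bear other names (sad, phtm and their relatives) were not members and served for comparison.

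Cytochrome P450 enzymes are heme proteins that insert an oxygen atom into hormones, fatty acids and foreign compounds. Microsomal P450s sit in the endoplasmic reticulum and take electrons from the reductase Cpr, helped by cytochrome b5. Mitochondrial P450s take theirs from a ferredoxin that is reduced by the enzyme encoded by dare. In flies, the Cyp6, Cyp9, Cyp12 and Cyp28 families hold most of the P450s linked to detoxification and insecticide resistance, while single members of other families act on steroid hormones or in cuticle formation. Oenocytes, the hydrocarbon-producing cells under the abdominal cuticle, share several metabolic functions with the liver.

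The 4 groups were of mated females, each with 3 libraries: PQ-Aged (28 days after eclosion in the labels, food with 10 mM paraquat for 24 h), H2O-Aged (28 days, food with water), PQ-Young (14 days, paraquat) and H2O-Young (14 days, water). The study's methods state other ages for these groups, and the ages printed here are those of the labels. Paraquat is a herbicide that generates superoxide in cells. All groups carried the PromE-Gal4 driver, which is active in oenocytes, and UAS-RpL13A-FLAG, a tagged protein of the large ribosomal subunit. RNA was recovered with an anti-FLAG antibody from the lysate of ground, pooled whole flies. The table holds 1 FPKM value (fragments scaled to transcript length and library size) for each locus and group, estimated over that group's libraries. No value below therefore has a spread between libraries. The authors' own test columns were not used, so whether a difference is larger than that spread is not judged here. Counts are therefore given by a fold rule: a gene was compared where its FPKM reached 1 in either of the groups, and called higher or lower where log2 of the ratio of (FPKM + 0.1) was at least 1 in size. The share of all protein-coding loci called by the same rule stands beside the first count of members in each comparison. In such RNA, fewer cells of a type and less RNA on ribosomes per cell cannot be told apart.

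Of the 11 oenocyte markers with a usable value, 10 were at least 2-fold lower in H2O-Aged than in H2O-Young, 6 of 11 in PQ-Young than in H2O-Young, 10 of 11 in PQ-Aged than in PQ-Young and 0 of 11 in PQ-Aged than in H2O-Aged, and their summed FPKM was 3561 in PQ-Aged, 5154 in H2O-Aged, 21102 in PQ-Young and 43159 in H2O-Young. By the same rule, 23.3%, 8.31%, 13.3% and 1.69% of all protein-coding loci were lower in these comparisons, in the order given. FarO, CG13091, CG17562, CG4020 and CG18609 are genes the study reported as enriched in oenocytes, from H2O-Young against whole flies. That choice favours lower values in groups set against H2O-Young. Markers of other cells were present as well. The sum over 9 midgut genes was 3279, 2692, 5913 and 10884 FPKM in PQ-Aged, H2O-Aged, PQ-Young and H2O-Young. All 8 compared midgut genes were lower in H2O-Aged than in H2O-Young and 4 of 8 in PQ-Aged than in PQ-Young. For 13 germline and eggshell genes the sum was 2583, 2224, 3153 and 12093 FPKM in the same order. Of these, 8 were lower and 2 higher in H2O-Aged than in H2O-Young, and 7 and 2 in PQ-Aged than in PQ-Young. The lower ones were all eggshell genes (Cp and Vm). The germline genes nanos and vas were the higher ones (2.23 and 1.45 in water), and osk, bcd and grk stayed under 2-fold. Of all loci, 13.3% and 6.1% were higher in these 2 comparisons. The 8 fat body genes summed to between 14.0 FPKM (PQ-Aged) and 52.2 FPKM (H2O-Young). In H2O-Young apolpp had 24.8 and Lsp1beta 17.4 FPKM, while Fbp1 and Lsp1alpha were at or below 0.10 FPKM in every group. Of 4 compared, 3 were lower in H2O-Aged than in H2O-Young, and 1 of 3 in PQ-Aged than in PQ-Young. The 7 Malpighian tubule genes summed to between 59.0 FPKM (PQ-Aged) and 87.9 FPKM (H2O-Young). ZnT35C was highest, at 47.4 to 70.9 FPKM, and CapaR and Lkr were at or below 0.15 FPKM. Of 5 compared, 1 was lower in each comparison of ages. The part of these shifts in the P450 values was not tested. A library of H2O-Young lay apart from its group in the study's own principal component analysis. A pooled value cannot leave it out. H2O-Aged against H2O-Young and PQ-Young against H2O-Young both contain it, and PQ-Aged against PQ-Young is the comparison of ages that does not.

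The P450 genes outside Cyp4 were mostly expressed at low to moderate levels. Of the 60, 49 reached 1 FPKM and 15 reached 10 FPKM in some group, and 11 stayed under 1 FPKM in every group. The highest over all groups was Cyp6u1, with 61.1 FPKM in PQ-Aged, 56.5 in H2O-Aged, 58.0 in PQ-Young and 51.7 in H2O-Young, the narrowest range, as a ratio, of the 15 members that reached 10 FPKM. Its locus also holds Ufsp1, a gene whose exons overlap it on the same strand, so the value is shared. Cyp6a19 came next, at 70.2 and 71.9 FPKM in PQ-Aged and H2O-Aged against 35.7 and 20.0 FPKM in PQ-Young and H2O-Young. Both aged groups lay above both young groups in Cyp6a19, and this gene passed Cyp6u1 in each aged group. Cyp6v1 had 34.5, 46.3, 38.3 and 32.1 FPKM in PQ-Aged, H2O-Aged, PQ-Young and H2O-Young.

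**Figure D1:**
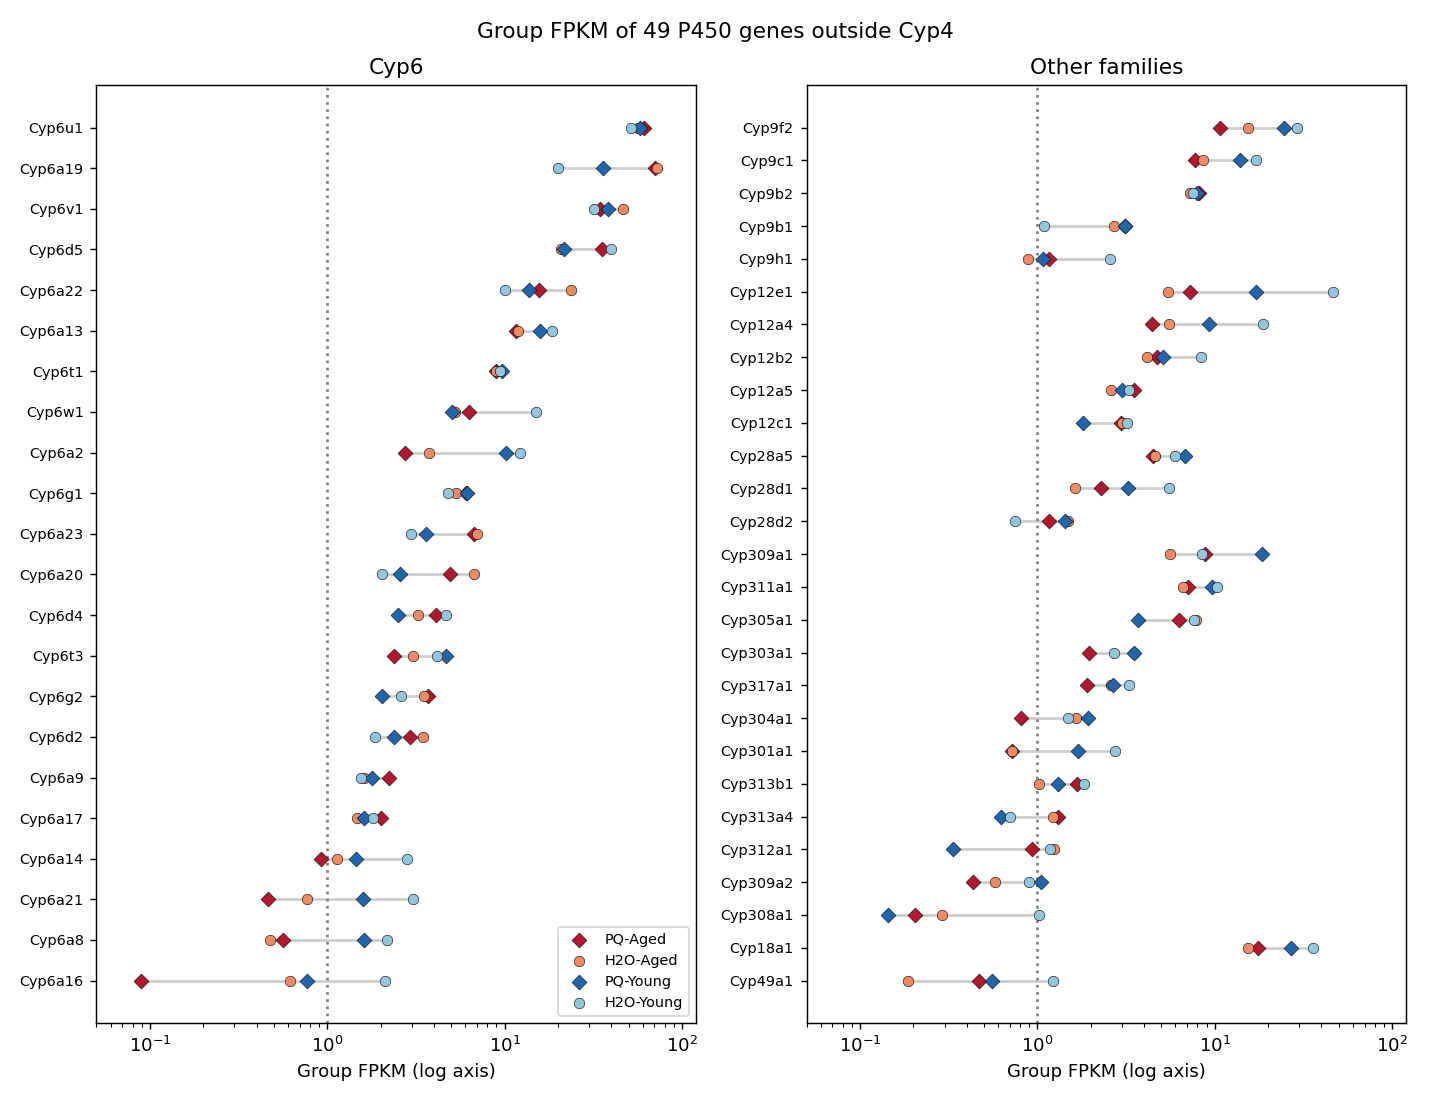
Group FPKM (log axis) of the 49 members that reached 1 FPKM in at least one group, Cyp6 on the left and the other families on the right. Diamonds stand for paraquat and circles for water, red for aged and blue for young, with 1 pooled value per group and no error bars; Cyp12e1 spans 5.43 to 46.3 FPKM and Cyp6u1 only 51.7 to 61.1 FPKM.

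Each family had 1 or a few leading genes. Among Cyp9 genes Cyp9f2 was highest, with 10.8 FPKM in PQ-Aged, 15.5 in H2O-Aged, 24.7 in PQ-Young and 29.2 in H2O-Young. Cyp9c1 followed the same order of groups at 7.71, 8.60, 13.8 and 17.1 FPKM, while Cyp9b2 stayed between 7.26 and 8.16 FPKM. The leading Cyp12 gene was Cyp12e1, at 7.29 and 5.43 FPKM in PQ-Aged and H2O-Aged against 17.2 and 46.3 FPKM in PQ-Young and H2O-Young. In the Cyp28 family, whose relatives in cactus-feeding Drosophila species are linked to alkaloid detoxification, Cyp28a5 was highest, between 4.48 FPKM (PQ-Aged) and 6.80 FPKM (PQ-Young). Of the Cyp3xx genes, Cyp309a1 led, with 18.6 FPKM in PQ-Young and 5.58 to 8.88 FPKM in the other 3 groups, and Cyp311a1 had 6.66 to 10.3 FPKM. Cyp18a1, which encodes a hydroxylase that inactivates ecdysteroids, was at 17.6, 15.4, 26.9 and 35.9 FPKM in PQ-Aged, H2O-Aged, PQ-Young and H2O-Young.

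Cyp6g1, known for DDT resistance through overexpression, stayed between 4.79 and 6.11 FPKM. The neighbouring copies Cyp12d1-p and Cyp12d1-d, which are induced by xenobiotics, were at most 0.65 FPKM in any group, and their near-identical sequences make the split between them uncertain. The 11 members under 1 FPKM throughout were Cyp6a18, both Cyp12d1 copies, Cyp28c1, Cyp310a1, Cyp316a1, Cyp318a1 and the Cyp313 genes a1, a2, a3 and a5. Of these, Cyp313a5 was listed at 0 in PQ-Aged, H2O-Aged and PQ-Young, and Cyp316a1 in PQ-Young and H2O-Young. The number of members at 1 FPKM or more was 39 in PQ-Aged, 41 in H2O-Aged, 44 in PQ-Young and 46 in H2O-Young.

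The summed FPKM of the members differed less between groups than the sum over all protein-coding loci. The member sum was 399 in PQ-Aged, 401 in H2O-Aged, 415 in PQ-Young and 478 in H2O-Young, while the sum over protein-coding loci was 733727, 748213, 1221734 and 1648540 in the same order. The make-up of the member sum differed more: Cyp6 genes gave 71.2% of it in PQ-Aged, 71.7% in H2O-Aged, 58.1% in PQ-Young and 51.4% in H2O-Young, and mitochondrial members 6.36%, 5.52%, 9.49% and 17.7%. Cyp6a19 alone held 17.6%, 17.9%, 8.61% and 4.18% of the member sum, and without it the Cyp6 sum was 214, 216, 205 and 226 FPKM, against 284, 288, 241 and 246 FPKM with it.

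**Figure D2:**
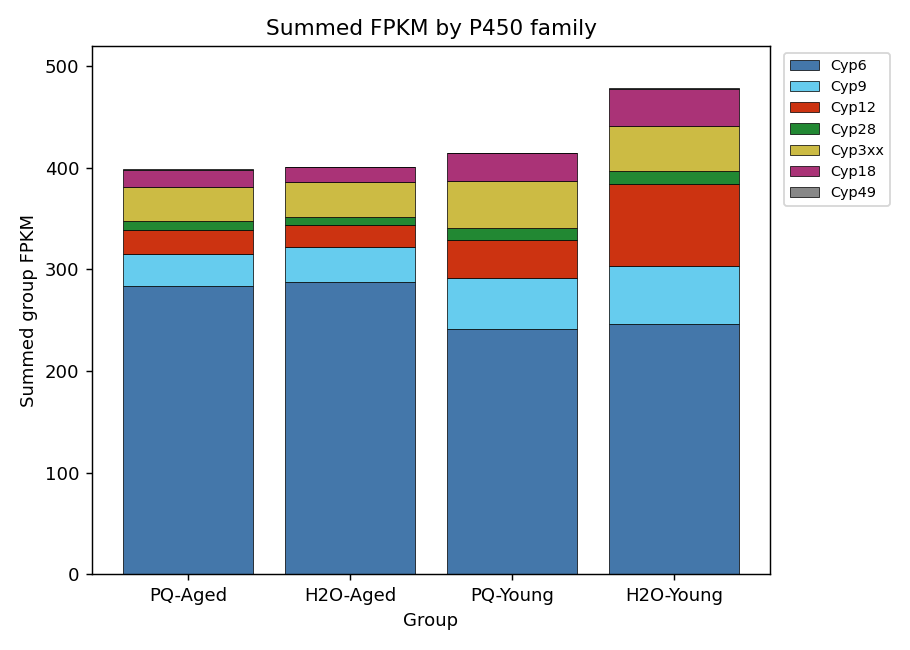
Summed group FPKM of the 60 members, stacked by family, with 1 bar per group and no error bars because each group has 1 pooled value. The Cyp6 block is 284 FPKM in PQ-Aged and 246 in H2O-Young, and the Cyp12 block 24.2 in PQ-Aged and 80.6 in H2O-Young.

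The comparison of H2O-Aged with H2O-Young asks how age alters P450 expression without the oxidant. Of 48 members compared, 14 were at least 2-fold lower and 5 at least 2-fold higher in H2O-Aged. By the same rule 23.3% of protein-coding loci were lower and 13.3% higher, against 29.2% and 10.4% of the members. As deposited, the shares of members thus lay near those of all loci. The median log2 fold change was -0.40 for the members and -0.11 for all compared loci. Scaling to Gapdh1, a glycolytic enzyme gene, moved the median of all loci to 0.28. It gave 11 lower and 8 higher members, beside 14.8% and 24.2% of all loci. Quantile normalization gave 14 lower and 8 higher, beside 16.8% and 15.6%. With a pseudocount of 1 FPKM, 9 were lower and 4 higher, with Cyp6a14, Cyp6a16, Cyp9h1, Cyp49a1 and Cyp308a1 among the calls lost. The share of all loci with that pseudocount was not computed.

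**Figure D3:**
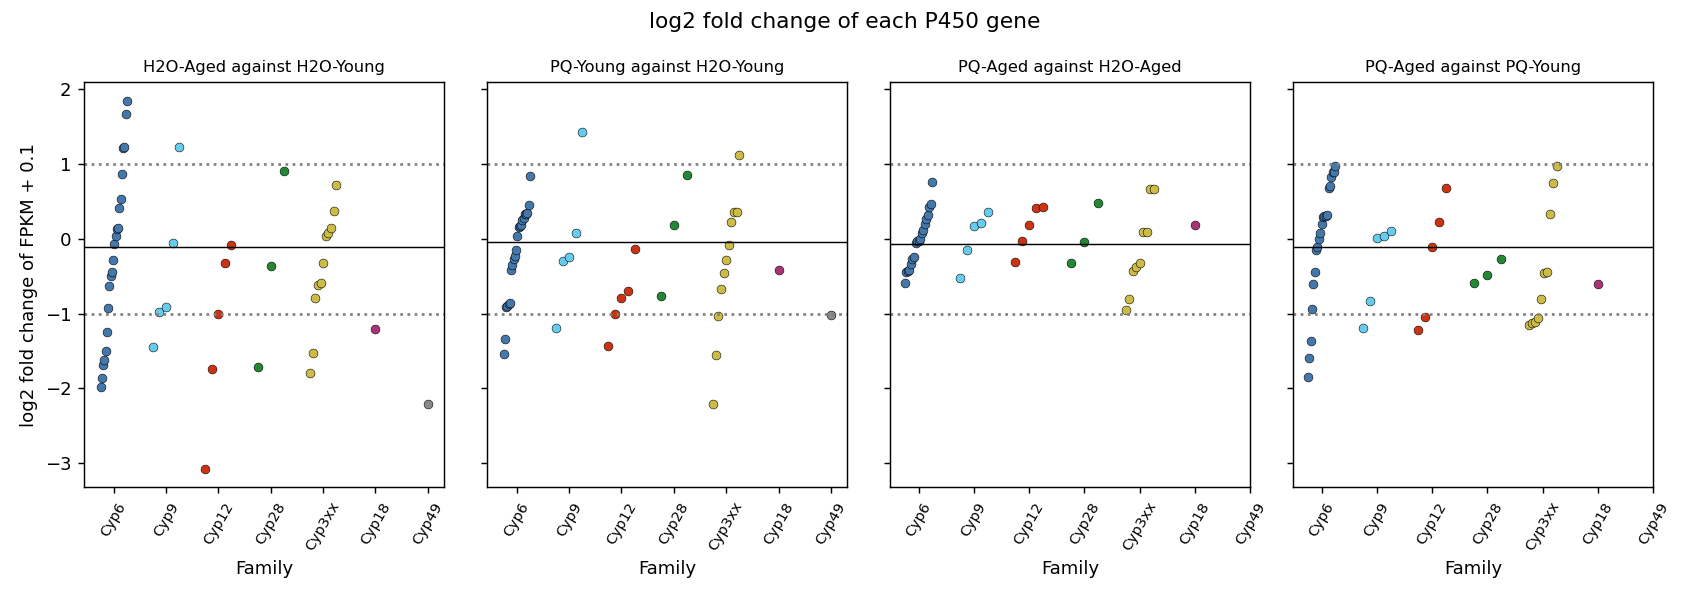
log2 fold change of FPKM + 0.1 for each compared member, by family, in the 4 comparisons named above the panels. Dotted lines mark 2-fold in each direction and the solid line the median of all compared protein-coding loci; the points reach 1.84 (Cyp6a19) and -3.07 (Cyp12e1) between H2O-Aged and H2O-Young and stay within 2-fold between PQ-Aged and H2O-Aged.

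Mitochondrial members had the lower median of the 2 compartments. Of the 7 compared, 4 were at least 2-fold lower in H2O-Aged than in H2O-Young (Cyp12e1, Cyp12a4, Cyp301a1 and Cyp49a1), none was higher, and the median log2 fold change was -1.74, ranging from -3.07 to -0.09. Of all loci, 23.3% were lower and 13.3% higher in this comparison. Scaling to Gapdh1 left 4 of the 7 lower, beside 14.8% of all loci, and gave a median of -1.38. It turned 2 of the 7 values positive. The 41 microsomal members compared had a median of -0.32, with 10 lower and 5 higher. This difference between compartments rests on few genes and was not tested. Cyp12e1, on chromosome 3R from 10434789 to 10436704 (dm6, plus strand, 6 exons), differed most of all members, with 5.43 FPKM in H2O-Aged against 46.3 in H2O-Young, a log2 fold change of -3.07. Cyp12a4, a gene linked to lufenuron resistance, had 5.51 FPKM in H2O-Aged against 18.7 in H2O-Young (log2 fold change -1.74), and the annotation places a Bari1 transposon insertion in its exons.

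The other Cyp12 genes differed less. Cyp12b2 fell just short of the rule at 4.16 FPKM in H2O-Aged against 8.42 in H2O-Young, and its exons overlap Jabba on the opposite strand. Cyp12a5, which lies just upstream of Cyp12a4 on the same strand, had 2.61 FPKM in H2O-Aged against 3.30 in H2O-Young, and Cyp12c1 had 3.02 against 3.22 FPKM. Thus 2 neighbours of the same subfamily, Cyp12a5 and Cyp12a4, had log2 fold changes of -0.33 and -1.74. Cyp301a1, needed for adult cuticle formation, had 0.72 FPKM in H2O-Aged against 2.74 in H2O-Young, and Cyp49a1 had 0.19 against 1.23 FPKM. The last 2 genes rest on values close to the minimum of 1 FPKM, and Cyp49a1 was no longer 2-fold lower with the larger pseudocount (log2 fold change -0.91).

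Because Cyp12e1 was so abundant in young flies, it carried much of the mitochondrial sum. That sum was 25.4 FPKM in PQ-Aged, 22.2 in H2O-Aged, 39.4 in PQ-Young and 84.6 in H2O-Young, of which Cyp12e1 gave 28.7%, 24.5%, 43.6% and 54.8%. Without Cyp12e1 the sum was 18.1, 16.7, 22.2 and 38.3 FPKM, and the log2 ratio of H2O-Aged to H2O-Young was -1.19 in place of -1.93. The microsomal sum was 373, 379, 376 and 394 FPKM in the same order of groups.

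The 5 members that were higher in H2O-Aged than in H2O-Young were Cyp6a19, Cyp6a20, Cyp6a22 and Cyp6a23 of the Cyp6a subfamily, and Cyp9b1. Cyp6a19 had 71.9 FPKM in H2O-Aged against 20.0 in H2O-Young, a log2 fold change of 1.84. Cyp6a20, a gene linked to aggression in males, had 6.71 against 2.04 FPKM (1.67). Cyp6a22 had 23.6 against 10.0 FPKM and Cyp6a23, a close paralog of Cyp6a17, had 6.96 against 2.95 FPKM. All 4 Cyp6a genes were also called higher after scaling by the median ratio, to Gapdh1 and by quantiles. Cyp9b1 had 2.70 FPKM in H2O-Aged against 1.09 in H2O-Young and was lost with a pseudocount of 1 FPKM (log2 fold change 0.82). The exons of Cyp6a19 overlap those of Cyp6a9, those of Cyp9b1 overlap esn, and those of Cyp6a22 hold an annotated transposon. Whether strand was used in counting is not given in the sources used here. Without the 18 of 60 members whose exons overlap another annotated gene or transposon, 2 members were higher and 10 lower. No share of all loci was computed for that exclusion.

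Among the 14 members that were lower, Cyp6a2, elevated in insecticide-resistant strains and known to metabolise several insecticides, had 3.74 FPKM in H2O-Aged against 12.3 in H2O-Young (log2 fold change -1.69). Cyp6w1, linked to DDT resistance, had 5.24 FPKM in H2O-Aged against 14.9 in H2O-Young (-1.49). Cyp6a8, also raised in DDT-resistant strains, had 0.47 against 2.18 FPKM (-1.99). Cyp28d1, linked to nicotine resistance, had 1.62 FPKM in H2O-Aged against 5.54 in H2O-Young (-1.71), and its exons overlap CG7742 on the opposite strand. Cyp18a1, the ecdysteroid hydroxylase, had a log2 fold change of -1.21, and -0.84 after scaling to Gapdh1. The remaining lower members were Cyp6a14, Cyp6a16, Cyp6a21, Cyp9h1 and Cyp308a1, none of which was above 3.06 FPKM in any group.

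Members side by side in the genome differed in size and direction. There were 10 groups of neighbours at most 10 kb apart, with 29 members, and 27 of the 60 members lay on chromosome arm 2R. The largest holds 9 genes within 31.7 kb of 2R, from 14871366 to 14903095 (dm6). On its plus strand, the log2 fold changes between H2O-Aged and H2O-Young were 1.23 for Cyp6a22, -0.28 for Cyp6a17, 1.21 for Cyp6a23, 1.84 for Cyp6a19, 1.67 for Cyp6a20 and -0.32 for Cyp317a1. On its minus strand they were 0.04 for Cyp6a9, -1.86 for Cyp6a21 and -1.99 for Cyp6a8. All 4 higher Cyp6a genes thus lie on the plus strand of this stretch, within 12.7 kb of its start, and both lower ones on the minus strand. The paralogs Cyp6a17 and Cyp6a23 share much sequence, so a read from one could be counted for the other.

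**Figure D4:**
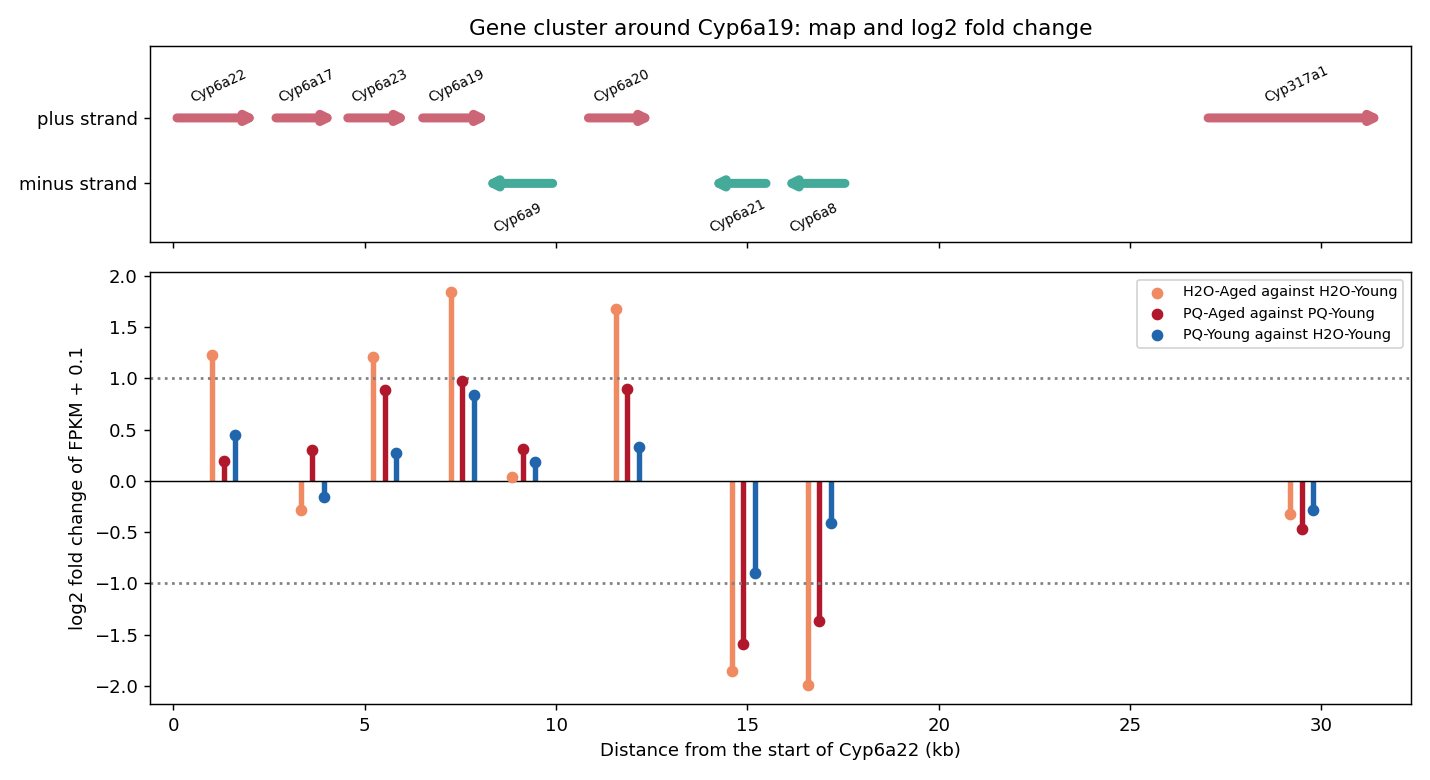
The 9-gene group on chromosome arm 2R, with gene bodies drawn to scale by strand (top) and log2 fold changes of FPKM + 0.1 in 3 comparisons (bottom) against distance in kb from the start of Cyp6a22. Dotted lines mark 2-fold; Cyp6a19 and Cyp6a20 stand at 1.84 and 1.67, and Cyp6a21 and Cyp6a8 at -1.86 and -1.99, between H2O-Aged and H2O-Young.

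Differences between neighbours were found in the smaller groups too. On 2L, Cyp28d2 had 1.49 FPKM in H2O-Aged against 0.75 in H2O-Young (log2 fold change 0.91), next to Cyp28d1 at -1.71. On 2R, Cyp9b1 was at 1.23 and Cyp9b2, its neighbour on the same strand, at -0.06. The neighbours Cyp6a14 and Cyp6a13 shared a direction, with log2 fold changes of -1.24 and -0.63. Cyp6g1, Cyp6g2 and Cyp6t3 were at 0.14, 0.41 and -0.45, all under 2-fold, and the exons of the first 2 overlap on opposite strands.

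The comparison of PQ-Young with H2O-Young asks what the oxidant did in young flies. Of 48 members compared, 9 were at least 2-fold lower and 2 at least 2-fold higher in PQ-Young, against 8.31% of loci lower and 2.47% higher in the background. The members' shares were 18.8% and 4.17%, and their median log2 fold change was -0.26, beside -0.04 for all loci. Scaling to Gapdh1 gave 7 lower and 2 higher, beside 9.76% and 1.61% of all loci. Quantile normalization gave 5 lower and 3 higher, beside 6.25% and 3.25%. With a pseudocount of 1 FPKM only 2 lower members (Cyp6w1 and Cyp12e1) and 1 higher member (Cyp309a1) were left. The share of all loci with that pseudocount was not computed. This comparison shares H2O-Young with the one of H2O-Aged, so the 2 sets of fold changes are not independent of each other.

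The lower members again included mitochondrial genes. Cyp12e1 had 17.2 FPKM in PQ-Young against 46.3 in H2O-Young (log2 fold change -1.43), and Cyp12a4 had 9.24 against 18.7 FPKM (-1.01). With Cyp49a1, these made 3 of 7 mitochondrial members compared, beside 8.31% of all loci lower. None of the 7 was above 0, and their median was -0.79. No mitochondrial member was above 0 under any of the 3 other scalings. Quantile normalization left only 1 of 7 past 2-fold, beside 6.25% of all loci lower. Cyp6w1 had 5.08 FPKM in PQ-Young against 14.9 in H2O-Young (-1.54), about the level it had in both aged groups (6.29 in PQ-Aged and 5.24 in H2O-Aged). The other lower members were Cyp6a16, Cyp9h1, Cyp305a1, Cyp308a1 and Cyp312a1. Of these, only Cyp305a1 exceeded 3 FPKM in H2O-Young, with 3.70 FPKM in PQ-Young against 7.68 in H2O-Young.

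The 2 members that were higher in PQ-Young than in H2O-Young were Cyp309a1 and Cyp9b1. Cyp309a1, on chromosome 2L from 2562483 to 2564830 (dm6, minus strand, 6 exons), had 18.6 FPKM in PQ-Young against 8.49 in H2O-Young, a log2 fold change of 1.12. Its neighbour Cyp309a2 had 1.05 against 0.89 FPKM. Cyp9b1 had 3.12 FPKM in PQ-Young against 1.09 in H2O-Young (1.43). Cyp6a2 had 10.2 FPKM in PQ-Young against 12.3 in H2O-Young, Cyp6g1 6.11 against 4.79 FPKM and Cyp6a8 1.61 against 2.18 FPKM, none of these 3 past 2-fold. In Cyp6a19 the log2 fold change was 0.84, with 35.7 FPKM in PQ-Young against 20.0 in H2O-Young.

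In aged flies no member differed 2-fold with the oxidant. Of 42 members compared between PQ-Aged and H2O-Aged, 0 were at least 2-fold higher and 0 lower, beside 1.37% and 1.69% of all loci, so a count of 0 in 42 is near the background. The members' median was -0.02 and their range -0.95 (Cyp304a1) to 0.76 (Cyp6d5). Cyp6d5, a gene induced by several foreign compounds, had 35.4 FPKM in PQ-Aged against 20.9 in H2O-Aged. Cyp309a1 had 8.88 FPKM in PQ-Aged against 5.58 in H2O-Aged (log2 fold change 0.66). Cyp304a1 had 0.81 against 1.66 FPKM and Cyp303a1, required for normal sensory bristles, 1.96 against 3.50 FPKM. Scaling to Gapdh1, which moved the median of all loci to 0.48, gave 4 higher members, beside 9.95% of all loci. The member median was then 0.52. Under the median ratio and quantile normalization the members' median was 0.05 and 0.10, so its sign depends on the scaling.

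The effects of paraquat in young and in aged flies come from comparisons that share no library. Over the 49 members at 1 FPKM or more in any group, the 2 log2 fold changes had Pearson r = 0.01 and Spearman rho = -0.15, and 40.8% had the same sign. Over 9253 protein-coding loci chosen the same way, r was -0.09, rho -0.15 and the same-sign share 43.7%, so the members did not stand out. These correlations are across genes, which are not independent replicates. Several members had opposite signs. Cyp6d5 had a log2 fold change of -0.86 in PQ-Young against H2O-Young and 0.76 in PQ-Aged against H2O-Aged, a difference (aged minus young) of 1.62. That difference was 1.84 in Cyp12e1, 1.80 in Cyp6w1 and 1.54 in Cyp9h1, and -1.30 in Cyp304a1 and -1.18 in Cyp28d2. Each such difference contains the H2O-Young value, and with it the library that lay apart. Without values per library, no such difference was tested.

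**Figure D5:**
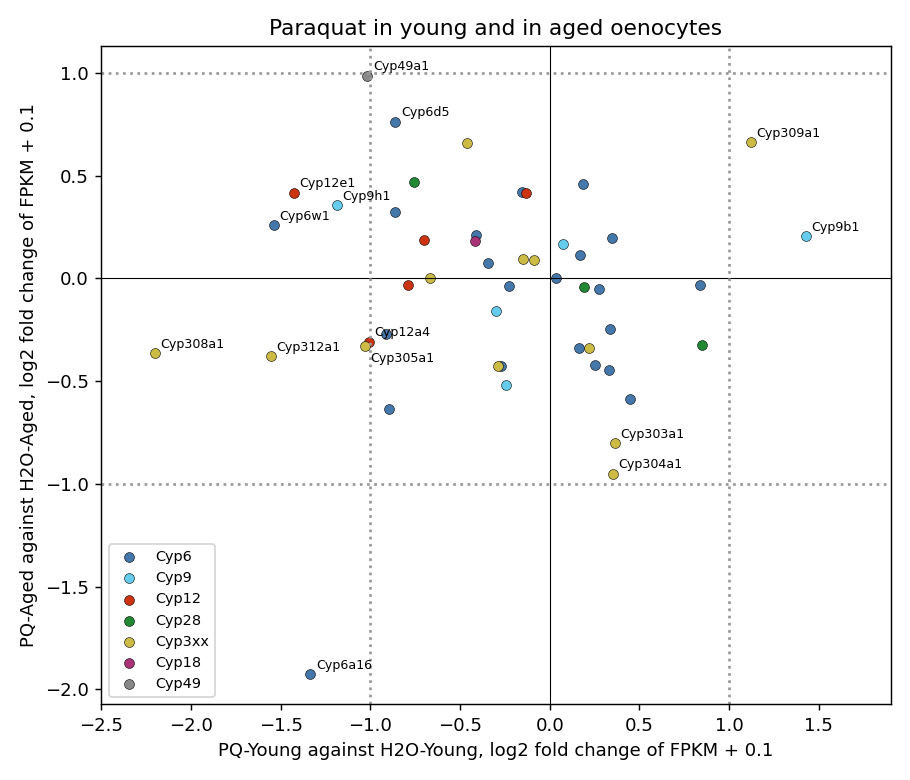
log2 fold change of FPKM + 0.1 by paraquat in young flies (horizontal) and in aged flies (vertical) for the 49 members at 1 FPKM or more in any group, coloured by family, with dotted lines at 2-fold. Points at the left near the horizontal zero line, such as Cyp6w1 (-1.54 and 0.26) and Cyp12e1 (-1.43 and 0.42), are past 2-fold with paraquat in young flies and within it in aged flies; Cyp49a1, Cyp308a1 and Cyp6a16 are among those under 1 FPKM in both aged groups.

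Under paraquat, age was compared between PQ-Aged and PQ-Young. Of 45 members compared, 10 were at least 2-fold lower and 0 higher in PQ-Aged, beside 13.3% and 6.1% of all loci. The median log2 fold change was -0.11 for the members and for all loci. The count depends on the scaling: Gapdh1 itself was 2-fold lower in PQ-Aged (log2 fold change -1.02), scaling to it moved the median of all loci to 0.92, and 20 members were then higher and 0 lower. By the median ratio 2 were higher and 8 lower, and by quantiles 3 and 7.

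Of the 14 members lower in H2O-Aged than in H2O-Young, 6 were also lower in PQ-Aged than in PQ-Young: Cyp6a2, Cyp6a8, Cyp6a21, Cyp12a4, Cyp12e1 and Cyp301a1. How many of all protein-coding loci were lower in both was not counted. Of those compared, 23.3% were lower in water and 13.3% under paraquat. Cyp6a2 had 2.76 FPKM in PQ-Aged against 10.2 in PQ-Young, a log2 fold change of -1.85, the lowest of the 45 compared. Cyp12e1 had 7.29 FPKM in PQ-Aged against 17.2 in PQ-Young (-1.23), less than its value of -3.07 in water. Cyp12a4 had 4.43 against 9.24 FPKM (-1.04). Of the other 8, Cyp6a14, Cyp6w1, Cyp9h1, Cyp18a1 and Cyp28d1 were compared and not called, and Cyp6a16, Cyp49a1 and Cyp308a1 were too low. The 4 lower members that were not called in water were Cyp9f2 (10.8 FPKM in PQ-Aged against 24.7 in PQ-Young), Cyp309a1 (8.88 against 18.6), Cyp304a1 (0.81 against 1.93) and Cyp309a2 (0.44 against 1.05). Neither age comparison called Cyp9c1, which was at -0.98 in water and -0.84 under paraquat.

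None of the 5 members higher with age in water passed 2-fold under paraquat in the values as deposited. Of all loci compared, 13.3% were higher in water and 6.1% under paraquat, and their overlap was not counted. Cyp6a19 had 70.2 FPKM in PQ-Aged against 35.7 in PQ-Young (log2 fold change 0.97), Cyp6a20 had 4.90 against 2.59 FPKM (0.90) and Cyp6a23 had 6.72 against 3.59 FPKM (0.88). These 3 kept their direction and lay just under the rule; Cyp6a19 passed it by the median ratio (1.07), by Gapdh1 (1.99) and by quantiles (1.21), and Cyp6a20 and Cyp6a23 by Gapdh1 only (1.89 each). Cyp6a22 had 15.7 against 13.7 FPKM (0.19, and 1.21 by Gapdh1) and Cyp9b1 3.12 FPKM in both PQ-Aged and PQ-Young. On the minus strand of the same stretch, Cyp6a21 and Cyp6a8 were at -1.59 and -1.36. Over the 49 members, the log2 fold changes with age in water and under paraquat had r = 0.59 and rho = 0.57 and the same sign in 69.4%, beside 0.66, 0.69 and 76.9% over 9253 loci.

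Genes that serve the P450s were listed by role. Cpr, the electron donor of microsomal P450s, had 1382 FPKM in PQ-Aged, 1249.5 in H2O-Aged, 2672 in PQ-Young and 3866 in H2O-Young. It was the only one of 5 electron donors past 2-fold with age in water (log2 fold change -1.63). Beside this, 23.3% of all loci were lower and 13.3% higher, so 1 of 5 lower is near the background. None passed in the other 3 comparisons as deposited, where at most 13.3% of all loci were lower and 6.1% higher. Under quantile normalization Cpr was at -0.34 with age in water, so none of the 5 passed there, beside 16.8% of all loci lower. The locus of Cyt-b5, which it shares with Gpo2, had 2264, 2675, 3052 and 3424 FPKM. On the mitochondrial side, Fdx1 had 60.7, 49.2, 62.7 and 86.2 FPKM, Fdx2 142, 132, 163 and 186 FPKM, and the locus of dare, shared with CG18335 and Fbl6, stayed between 53.1 and 55.2 FPKM. On this scale per length, the FPKM of each donor was above that of every member but Cyp6u1 and Cyp6a19 in each group. Under quantile normalization Cyt-b5 and Fdx2 turned positive with age in water (0.94 and 0.14).

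Of 10 genes of heme synthesis and breakdown, 6 were lower and 1 higher in H2O-Aged than in H2O-Young, beside 23.3% and 13.3% of all loci. Their median log2 fold change was -1.17. Alas, the first enzyme of the pathway, had 1382 FPKM in PQ-Aged, 1437 in H2O-Aged, 2987 in PQ-Young and 4329 in H2O-Young, and Urod, a later one, 731, 653, 3098 and 6439 FPKM. The count of lower heme genes was 5 by the median ratio, 4 by Gapdh1 and 2 by quantiles, beside 22.1%, 14.8% and 16.8% of all loci. By quantiles Alas was at -0.33 and Urod at -2.03, against -1.59 and -3.30 as deposited. Of 3 epoxide hydrolases, which open the epoxides that P450s make, 2 were lower with age in water (Jheh1 and Jheh2). Jheh2 had 62.4 and 85.9 FPKM in PQ-Aged and H2O-Aged against 164 and 232 FPKM in PQ-Young and H2O-Young, and its log2 fold change with age in water was -1.43 as deposited and -0.82 by quantiles, which leaves 1 of 3 lower. Among 8 regulators of the xenobiotic response, maf-S and ss were lower with age in water and none was higher. The transcription factor gene cnc, the fly counterpart of mammalian NRF2, had 45.9, 30.8, 35.7 and 26.8 FPKM, under 2-fold in each of the 4 comparisons, and its partner maf-S 247, 149, 443 and 473 FPKM. With age in water maf-S was at -1.67 as deposited and -0.87 by quantiles, under 2-fold.

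Compared with the Cyp4 family, whose 20 loci with a usable value were treated alike, the other members had the smaller median difference with age in water. Among 18 Cyp4 genes compared, 9 were lower and 3 higher, beside 23.3% and 13.3% of all loci. Their median log2 fold change was -1.01 against -0.40 for the other members, a difference that was not tested. Paraquat in young flies left 2 of 18 Cyp4 genes lower and 0 higher, beside 8.31% and 2.47% of all loci. The Cyp4 sum was 322 FPKM in PQ-Aged, 294 in H2O-Aged, 246 in PQ-Young and 339 in H2O-Young, without Cyp4g1, the oenocyte hydrocarbon P450, whose locus was marked as holding too many fragments. The ecdysteroid P450 gene sad, with 806 and 896 FPKM in PQ-Aged and H2O-Aged against 157 and 68.8 FPKM in PQ-Young and H2O-Young, was above every member in all 4 groups, and phtm, with 78.6, 95.2, 204 and 199 FPKM, likewise.

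The annotation gives the members a similar size. Proteins of the 23 Cyp6 genes have 488 to 529 residues from 1 to 5 exons, those of the 5 Cyp9 genes 505 to 522 residues from 2 to 4 exons, and those of the 4 Cyp28 genes 501 to 505 residues from 5 or 6 exons. The 7 Cyp12 proteins have 521 to 536 residues. Cyp49a1, with 14 exons and 589 residues, is the longest member and lies within the span of Galphao. Exons of 18 members overlap another annotated gene or transposon, among them Cyp303a1 with heix, Cyp317a1 with Kank and Cyp301a1 with Ak6.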

How the data were processed

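RNA from tagged ribosomes of 12 libraries, 3 in each of 4 groups taken from the sample labels, was sequenced by the authors. Per the labels the reads were aligned to dm6 with TopHat2, transcripts were assembled with Cufflinks and groups were compared with Cuffdiff. The authors' deposited table gives 1 FPKM value per locus and group, estimated over its libraries together, so depth and spread per library are unknown and no exact or other test was run. Its columns of fold change, test statistic, p, q and significance hold the authors' own comparisons of all pairs of groups and were not used. The status column served to set aside 87 loci marked as holding too many fragments, Cyp4g1 among them.

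RefSeq accessions were matched to symbols (30349 of 30550) with the reference gene table, and gene structure was taken from the Ensembl annotation of the same assembly. Of 63 reference symbols that fit the rule, 60 had a locus, and Cyp6a15Psi, Cyp6t2Psi and Cyp9f3 were not analysed here. At 667 loci several symbols share a value. Differences were computed in Python 3.11.15 with pandas 2.3.3 and numpy 2.4.6 as log2 of (FPKM + 0.1), which understates the change of low genes, among loci at 1 FPKM or more in either group, with 2-fold as the threshold. Percentages in the background come from 13246 protein-coding loci, before the minimum. The calling function was tested on simulated data. The genes named were the 12 highest, the 5 largest differences in each direction of each comparison, the highest of each family, the members of tandem groups (gaps of at most 10 kb), all electron donors and the 2 highest genes of the other lists, with further members named where a count was small. The members, lists and thresholds were chosen with earlier results of these data known. Alternatives were 3 scalings (median ratio, Gapdh1, quantiles), a pseudocount of 1 FPKM, minimums of 0.01 and 5 FPKM, loci with 1 symbol and, chosen after seeing the data, members without exon overlap and sums without Cyp12e1 or Cyp6a19.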

Additional observations from a re-analysis of the deposited data

How the results depend on the processing

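The group values allow no error, so all counts above rest on a fold rule, and members at low FPKM decide many of them. Beyond the values as deposited, shares of all loci were computed for the 3 scalings only. For the other alternatives, whether members lose calls more than other loci was not tested. No paired analysis was possible because the table gives 1 pooled value per group; leaving out single libraries was likewise not run. Between H2O-Aged and H2O-Young, 8 members were higher after scaling to Gapdh1 and also after quantile normalization, and 2 without members whose exons overlap another gene, in place of 5, while 9 were lower with a pseudocount of 1 FPKM and 6 with a minimum of 5 FPKM, in place of 14. The members' median, -0.40 as deposited, was 0.000224 after scaling to Gapdh1. Between PQ-Young and H2O-Young, 5 were lower after quantile normalization, 2 with the pseudocount of 1 and 4 with the minimum of 5 FPKM, in place of 9, and 1 was higher with that pseudocount, with that minimum and without overlapping members, in place of 2. Between PQ-Aged and H2O-Aged, 4 were higher after scaling to Gapdh1, and 1 was higher and 1 lower with a minimum of 0.01 FPKM, in place of 0. The median there, -0.02, turned to 0.046 by the median ratio, 0.52 by Gapdh1, 0.10 by quantiles and 0.089 without overlapping members. Between PQ-Aged and PQ-Young, 2 were higher by the median ratio, 20 by Gapdh1, 3 by quantiles and 2 with the minimum of 0.01 FPKM, in place of 0, and 0 were lower by Gapdh1, 3 with the pseudocount of 1 and 5 with the minimum of 5 FPKM, in place of 10. The median turned to 0.90 by Gapdh1, where 45.4% of all loci were higher and 2.42% lower. No called member changed sign under any alternative in which it could be compared, and using only loci with 1 symbol moved no count by more than 1.5 times. Scaling to Gapdh1 shifts the log2 ratio of FPKM of all loci alike, by the log2 fold change of Gapdh1 with its sign reversed. Because 0.1 FPKM was added after scaling, the fold changes of low loci shifted less. The log2 fold change of Gapdh1 was -0.37 in H2O-Aged and 0.10 in PQ-Young, each against H2O-Young. In PQ-Aged it was -0.55 against H2O-Aged and -1.02 against PQ-Young. The cause of the other shifts was not tested beyond the fewer genes that a higher minimum or the exclusion of overlapping members leaves.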
